A study of Mus musculus with 16 samples.

Results

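The 10 genes described are S100a1, S100a4, S100a6, S100a8, S100a9, S100a10, S100a11, Anxa1, Anxa2 and Anxa5, taken by their annotated symbol from the 18194 genes that the array annotation names. S100 proteins are small EF-hand proteins that bind calcium and then dock onto partner proteins. Annexins bind phospholipid membranes when calcium rises, and several annexins carry an S100 dimer on their N-terminal tail. In the kidney, members of both families are known from injured tubules, infiltrating leukocytes and the apical membrane, where S100A10 with annexin A2 handles ion channels. Kidney RNA came from 16 mouse pups of 7 days, with 1 array per animal. The pups were littermates from matings of Aqp11+/- mice, on a C57BL/6J background per the labels and bred there from a 129/SvEvBrd allele. There were 7 wild-type pups (Aqp11+/+), 3 of them male and 4 female, and 9 knockout pups (Aqp11-/-), 5 of them male and 4 female. The knockout is a germline one, so all cells of the pup lack Aqp11, an aquaporin of the endoplasmic reticulum whose loss is known for vacuoles and cysts in the proximal tubule. The comparison asks how that loss changes kidney gene expression.

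Signals are log2 of quantile normalized intensity. Values under a log2 of 2.78 were raised to it, and 1 array probe set stands for each gene unless stated. Levels are compared between animals for the same probe set and not between genes. Aqp11 itself lay at 7.72 to 8.11 on wild-type arrays and at 2.78 to 3.69 on knockout arrays. Before normalization the trimmed mean of an array varied 2.12-fold, and the widest gap parted 8 brighter arrays (4 wild type, 4 knockout) from 8 dimmer ones (3 wild type, 5 knockout). Proximal tubule markers marked the tissue as kidney on all 16 arrays, with a list mean of 11.10 to 11.37 in wild type and 9.85 to 10.65 in knockout. A pair of wild-type arrays, 2-1 and 2-2, stood apart on macrophage and monocyte markers and were highest of their genotype on neutrophil markers. Their macrophage list means were 7.14 to 7.17 against 6.30 to 6.55 on the other wild-type arrays and 7.82 to 8.57 in knockout. Results that rest on those arrays are given with and without them. The study bred 5 pairs of mice and the first part of a sample's number runs from 1 to 5, but the labels do not say that it marks a pair. In whole-kidney RNA, more cells of a type and more RNA per cell cannot be told apart.

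Of the 10 genes, 9 had a probe set of their own, and all 9 were bright enough to test. S100a6, S100a8, S100a9, S100a10, Anxa1, Anxa2 and Anxa5 rose in the knockout kidney, S100a4 and S100a1 did not pass the test, and none fell. The 7 that rose (limma, Benjamini-Hochberg adjusted over 12500 genes at 0.05) stand beside a background of 17.7% of all genes tested that were called, 9.37% higher and 8.35% lower. The median log2 difference, knockout minus wild type, was 0.48 over the 9 genes and 0.0031 over all genes tested. For each of the 7 genes that rose, no knockout array fell below the mean of the wild-type group. The 7 were picked by the same comparison, so this follows in large part from the call, and its share over all genes was not computed. S100a6 and Anxa1 had no overlap between the genotypes, as did 2.91% of all genes in that direction and 2.43% in the other. When the deposited scaling was kept without normalization, 2 of the 9 passed, S100a6 and S100a8, and 438 of all genes. The log2 differences of the other 5 were then 0.38 for S100a10 and Anxa2, 0.32 for Anxa5, 0.60 for Anxa1 and 0.75 for S100a9, against 0.39, 0.39, 0.33, 0.59 and 0.75 with normalization.

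**Figure D1:**
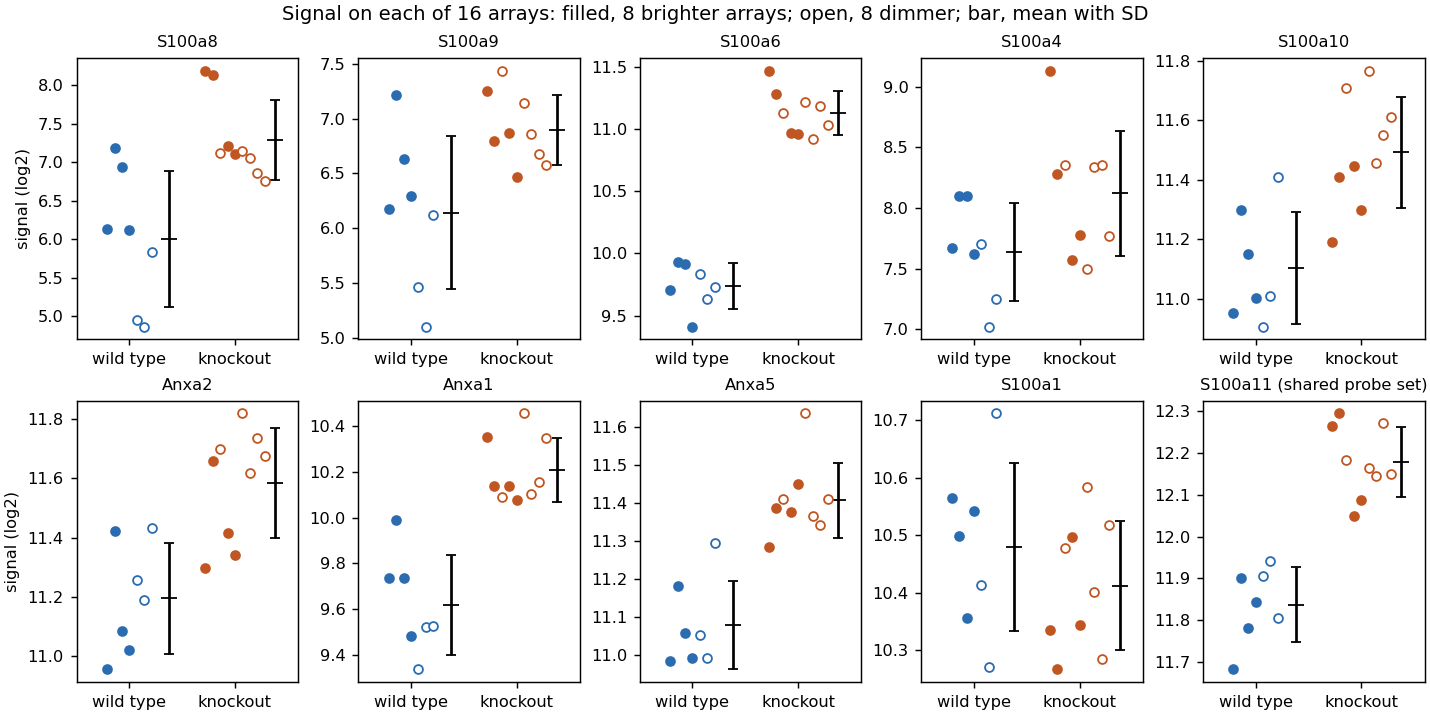
Log2 signal of each gene on the 16 arrays, wild type in blue and knockout in orange, with filled points for the 8 brighter and open points for the 8 dimmer arrays and a bar for the group mean with its SD; each panel has its own scale. The knockout points of S100a6, Anxa1 and the probe set shared by S100a11 lie above all wild-type points, while those of S100a1 lie among them.

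S100a8 and S100a9 encode the subunits of calprotectin, an alarmin stored by neutrophils and monocytes and released at sites of inflammation. S100a8 (probe set 1419394_s_at) ran from 4.87 through a median of 6.12 to 7.18 in wild type and from 6.76 through 7.12 to 8.19 in knockout. Both groups were wide and overlapped: 2 wild-type arrays, 2-1 and 2-2, lay inside the knockout range, and 3 of 9 knockout arrays lay above the highest wild-type one. Knockout arrays 1-2 and 2-3, at 8.19 and 8.14, stood above the other 7. The log2 difference was 1.28 ± 0.30 (SE), or 2.44-fold (limma adjusted p = 0.00446). The residual SD of S100a8 exceeded that of 98.1% of genes tested.

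S100a9 (1448756_at) ran from 5.10 through 6.18 to 7.21 in wild type and from 6.47 through 6.86 to 7.44 in knockout. The same pair of wild-type arrays, 2-1 and 2-2, lay inside the knockout range, at 7.21 and 6.63, and 2 of 9 knockout arrays lay above the highest wild-type one. The log2 difference of 0.75 ± 0.23 (SE), or 1.69-fold, passed (limma adjusted p = 0.0252). The call was lost without wild-type array 4-1 (log2 difference 0.64, adjusted p = 0.0635) or without 4-2 (0.58, adjusted p = 0.0594), the lowest arrays for both alarmin genes. Without wild-type arrays 2-1 and 2-2 the differences were larger, 1.71 for S100a8 (limma adjusted p = 0.00016) and 1.06 for S100a9 (adjusted p = 0.000898). Those arrays were the highest of wild type on both genes, so leaving them out could only enlarge the differences. S100a9 differed by 0.27 among the brighter arrays (limma adjusted p = 0.495) and by 1.37 among the dimmer ones (adjusted p = 0.005). For S100a8 these within-group differences were 1.07 (limma adjusted p = 0.0434) and 1.77 (adjusted p = 0.000368). The difference between brighter and dimmer arrays did not pass the interaction test for S100a9 (-1.11, limma adjusted p = 0.31) or S100a8 (-0.70, adjusted p = 0.459).

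Because the calprotectin subunits work as a dimer, their signals were set against each other within each genotype. Across the 7 wild-type arrays S100a8 and S100a9 moved together (Pearson r = 0.975, exact permutation p = 0.000397, adjusted over 6 relations 0.00238; Spearman rho = 0.964, exact permutation p = 0.00278, adjusted 0.00833). The wild-type arrays lay at separate levels on both genes, with 4-1 and 4-2 low and 2-1 and 2-2 high, so arrays with the same first number sat together, and no level held enough arrays for a value within it. Without 4-1 and 4-2, r was 0.938 (exact permutation, adjusted p = 0.1). So few arrays were then left that even the smallest possible exact p could not pass after adjustment. No conclusion is drawn from that missing pass. Across the 9 knockout arrays r was 0.347 (exact permutation p = 0.358, adjusted 0.537; rho = 0.583, exact permutation p = 0.108, adjusted 0.216). Leaving out knockout arrays 1-2 and 2-3 gave r = 0.492 (exact permutation, adjusted p = 0.511). The log2 ratio of S100a8 to S100a9 on an array averaged -0.14 in wild type and 0.39 in knockout. That difference of 0.53 was looked at after the values were seen and was not tested. It was 0.80 among brighter and 0.40 among dimmer arrays. Knockout arrays 1-2 (0.94) and 2-3 (1.34) had the highest ratios, and without them the difference was 0.32.

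**Figure D2:**
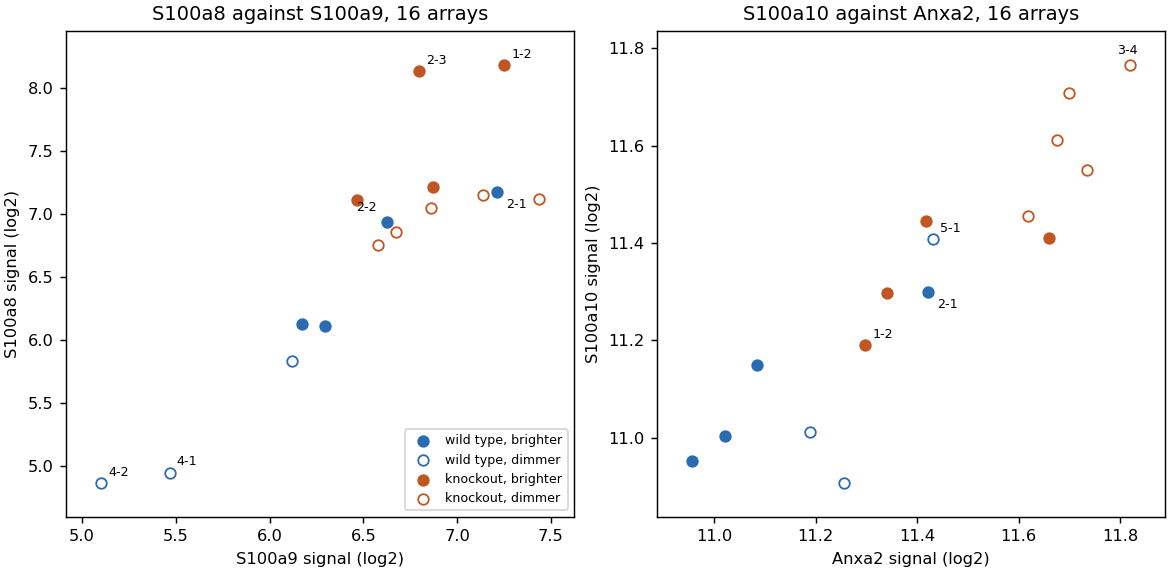
Log2 signal of S100a8 against S100a9 (left) and of S100a10 against Anxa2 (right) on 16 arrays, wild type in blue and knockout in orange, filled for brighter and open for dimmer arrays, with labels on the arrays that stand apart or were left out in turn. Knockout arrays 1-2 and 2-3 lie above the other knockout arrays on S100a8, and the S100a10 and Anxa2 points run along a single band with the dimmer knockout arrays at its top.

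Leukocyte markers were read beside these genes. All 19 macrophage and monocyte markers that the array named were tested and rose, with a median log2 difference of 1.59. They include Cd68, Adgre1 and the complement genes C1qa, C1qb and C1qc, and their list mean went from 6.30 to 7.17 in wild type up to 7.82 to 8.57 in knockout. Of all genes tested, 9.37% were called higher. Array order was alike in part: wild-type arrays 2-1 and 2-2 were the highest of their genotype on this list and on S100a8, and knockout array 1-2 was the highest of all. Other knockout arrays differed in order. Array 5-2, at 8.27, stood under 1-2 alone on the list but was the lowest knockout array on S100a8, at 6.76. Array 3-4 was the lowest knockout array on the list, at 7.82, with S100a8 at 7.15. Of 15 neutrophil markers, 12 were named, 3 were bright enough to test and none passed: Csf3r at 0.79 (limma adjusted p = 0.147), Stfa2l1 at 0.36 (adjusted p = 0.325) and Ngp at 0.35 (adjusted p = 0.45). The neutrophil list mean over those 3 genes was 3.79 to 5.19 on wild-type arrays and 4.37 to 5.57 on knockout arrays, with wide overlap. Wild-type arrays 2-1 and 2-2 were the highest of their genotype here as well, at 4.96 to 5.19 against 3.79 to 4.77 on the other wild-type arrays. The 95% interval of Csf3r, 0.04 to 1.54, leaves out 0 and those of Stfa2l1 and Ngp include it. Of the 9 neutrophil markers too dim to test, Cxcr2 lay at the floor on 14 of 16 arrays, Ctsg on 11, Elane on 9 and Mpo on 8. The others were at the floor on fewer arrays, Mmp8 on 5, Camp, Ltf and Mmp9 on 3 each and Prtn3 on 2. The part of either cell type in the S100a8 and S100a9 result was not tested.

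**Figure D3:**
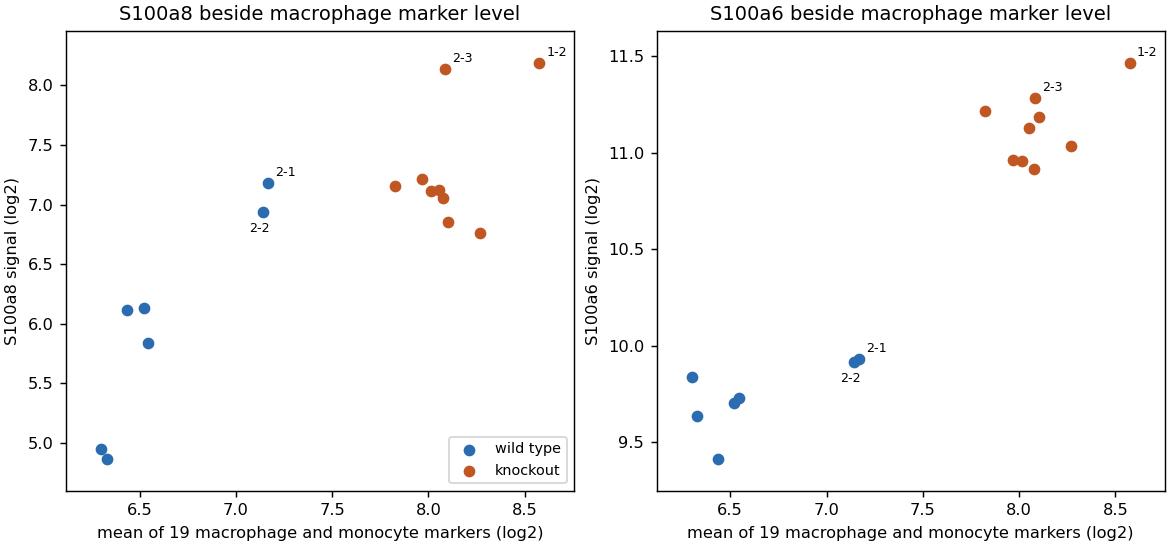
Log2 signal of S100a8 (left) and S100a6 (right) on each array against the mean log2 signal of 19 macrophage and monocyte markers, wild type in blue and knockout in orange. Wild-type arrays 2-1 and 2-2 lie at 7.14 to 7.17 on the marker axis; on the S100a8 axis they reach the knockout range and on the S100a6 axis they lie at 9.92 to 9.93, under all knockout arrays.

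RefSeq promoters of the alarmin genes (assembly GRCm38.p6) are shown because the genes are neighbours that rose together. Each is the 250 bases before the annotated start, 5′ to 3′ on the gene's strand. Capitals mark matches, on either strand, to the letters TGANTCA (AP-1), TTCNNNGAA (STAT), TTGCNNAA (C/EBP) or TATAAA (the TATA box); the matches shown do not overlap each other.
S100a8, chr3:90668821-90669070, plus strand: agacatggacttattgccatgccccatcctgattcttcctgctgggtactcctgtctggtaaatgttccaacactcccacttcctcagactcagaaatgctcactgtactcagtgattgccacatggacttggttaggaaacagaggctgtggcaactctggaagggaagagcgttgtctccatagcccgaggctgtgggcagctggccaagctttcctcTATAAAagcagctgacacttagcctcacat
S100a9, chr3:90695722-90695971, minus strand: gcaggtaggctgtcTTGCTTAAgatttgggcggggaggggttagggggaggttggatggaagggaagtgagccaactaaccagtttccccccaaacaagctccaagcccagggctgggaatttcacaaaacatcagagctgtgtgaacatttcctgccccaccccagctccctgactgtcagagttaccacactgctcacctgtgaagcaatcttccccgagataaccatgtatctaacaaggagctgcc
The S100a8 window holds TATAAA, which begins 30 bases before the start. The S100a9 window holds a C/EBP match that begins 236 bases before the start, and no TATAAA. Of all 32851 such windows, 12.4% hold TATAAA and 9.56% the C/EBP letters.

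S100a6 encodes calcyclin, a calcium sensor known from proliferating and injured epithelium and from fibroblasts, which binds the ubiquitin ligase adaptor encoded by Cacybp. It had the smallest adjusted p of the 9 genes. S100a6 (1421375_a_at) ran from 9.41 through 9.73 to 9.93 in wild type and from 10.91 through 11.13 to 11.47 in knockout. The groups did not overlap, and their spread was alike, with means of 9.74 ± 0.18 (SD, n = 7) and 11.13 ± 0.18 (SD, n = 9). The log2 difference was 1.39 ± 0.084 (SE), or 2.62-fold (limma adjusted p = 3.79e-10). It was 1.43 among brighter and 1.36 among dimmer arrays, and 1.35 in females and 1.45 in males. Its wild-type arrays 2-1 and 2-2, at 9.93 and 9.92, were the highest of their genotype, and without them the difference was 1.46.
The RefSeq window before S100a6 is shown because it has no match to any of the 4 motifs.
S100a6, chr3:90612644-90612893, plus strand: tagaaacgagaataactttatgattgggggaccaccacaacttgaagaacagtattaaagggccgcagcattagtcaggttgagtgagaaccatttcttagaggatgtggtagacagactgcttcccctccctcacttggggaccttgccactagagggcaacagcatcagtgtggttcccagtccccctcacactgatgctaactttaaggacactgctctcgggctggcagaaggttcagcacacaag

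S100a4 encodes a calcium sensor of fibroblasts, macrophages and migrating cells that binds the non-muscle myosin heavy chain encoded by Myh9. It (1424542_at) ran from 7.02 through 7.67 to 8.10 in wild type and from 7.50 through 8.28 to 9.13 in knockout. The groups overlapped widely, with 5 of 7 wild-type arrays inside the knockout range and 7 of 9 knockout arrays higher than the mean of wild type. The log2 difference of 0.48 ± 0.20 (SE) did not pass (limma adjusted p = 0.118), and its 95% interval ran from 0.06 to 0.91. Wild-type arrays 2-1 and 2-2, both at 8.10, were the highest of their genotype, and knockout array 1-2, at 9.13, was the highest of all. Without 2-1 and 2-2, S100a4 passed at 0.67 (limma adjusted p = 0.0432). Leaving out the highest wild-type arrays could only enlarge the difference, and that choice was made after the values were seen. This pass therefore adds no support. The gene whose deviations from the genotype means were most like those of S100a4 over the 16 arrays was Cd14, a monocyte receptor (Pearson r = 0.84). It was picked as the highest over 12500 genes, so this r is high by selection and was not tested. Of 13 fibroblast markers tested, 8 rose and none fell, beside 9.37% of all genes called higher. The list mean went from 10.22 to 10.38 in wild type up to 10.47 to 10.66 in knockout. Its part in the values of S100a4 and S100a6 was not tested. The fibroblast genes that passed include Tagln at 0.72 and Thy1 at 0.57, while Pdgfra (-0.04) and Dcn (-0.08) did not.

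S100a10 encodes p11, an S100 protein that does not need calcium, and Anxa2 encodes the annexin whose N-terminal tail it binds. The complex of both is known to hold plasminogen and its activator at the cell surface and to bring ion channels to the membrane. S100a10 (1416762_at) ran from 10.91 through 11.01 to 11.41 in wild type and from 11.19 through 11.46 to 11.77 in knockout. Anxa2 (1419091_a_at) ran from 10.96 through 11.19 to 11.43 in wild type and from 11.30 through 11.66 to 11.82 in knockout. Both overlapped between genotypes, with 7 of 9 knockout arrays above the highest wild-type one for S100a10 and 6 of 9 for Anxa2. S100a10 rose by 0.39 ± 0.085 (SE), or 1.31-fold (limma adjusted p = 0.00265). Anxa2 rose by 0.39 ± 0.085 (SE), likewise 1.31-fold (limma adjusted p = 0.00241). The log2 ratio of S100a10 to Anxa2 on an array averaged -0.09 in both genotypes, with a range of -0.35 to 0.07 in wild type and -0.25 to 0.03 in knockout. This ratio too was looked at after the values were seen and was not tested.

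The genotype differences of S100a10 and Anxa2 were then read by array brightness and by sex, and no interaction passed. In knockout, S100a10 ran from 11.19 to 11.45 on the 4 brighter arrays and from 11.46 to 11.77 on the 5 dimmer ones, with no overlap, while Anxa2 overlapped, at 11.30 to 11.66 and 11.62 to 11.82. For S100a10 the genotype difference was 0.23 among brighter arrays (limma adjusted p = 0.117) and 0.51 among dimmer arrays (adjusted p = 0.0108). For Anxa2 the differences were 0.31 (limma adjusted p = 0.0956) and 0.42 (adjusted p = 0.00262). The interaction of genotype and brightness was -0.28 for S100a10 (limma adjusted p = 0.426) and -0.11 for Anxa2 (adjusted p = 0.742). In females alone S100a10 differed by 0.16 (limma adjusted p = 0.4) and Anxa2 by 0.22 (adjusted p = 0.282), against 0.63 (adjusted p = 0.000697) and 0.58 (adjusted p = 0.00261) in males alone. The interaction of genotype and sex was 0.47 for S100a10 (limma adjusted p = 0.455) and 0.36 for Anxa2 (adjusted p = 0.455), so neither passed. Of the 9 genes, 2 had an unadjusted interaction p under 0.05 in limma, and over all 12500 genes 1354 did while 0 passed the adjusted test. Among knockout arrays the brighter ones were 1 male and 3 females and the dimmer ones 4 males and 1 female. With brightness in the fit the sex interaction of S100a10 was 0.41 (limma adjusted p = 0.77) and that of Anxa2 0.21 (adjusted p = 0.77).

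Within the knockout arrays, S100a10 and Anxa2 moved together (r = 0.877, exact permutation p = 0.00166, adjusted 0.00499; rho = 0.9, exact permutation p = 0.00203, adjusted 0.00833). Without knockout arrays 1-2 and 3-4, the lowest and the highest on S100a10, r was 0.740 (exact permutation, adjusted p = 0.183). In wild type r was 0.723 (exact permutation p = 0.0768, adjusted 0.154; rho = 0.607, exact permutation p = 0.167, adjusted 0.25). That relation rested on arrays 2-1 and 5-1, and without them r was -0.21 (exact permutation, adjusted p = 0.92). Few wild-type arrays were left for that value. No r was computed within a brightness group of either genotype, since each held few arrays. In knockout, S100a10 was parted by brightness, and Anxa2 averaged 11.43 on brighter and 11.71 on dimmer arrays. A shared move of both genes and a shared effect of brightness therefore cannot be told apart in the knockout r.

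Other probe sets of these genes gave a less even picture. For S100a10, 1456642_x_at rose by 0.45 (limma adjusted p = 0.0197 over 23191 probe sets) while 1439348_at differed by 0.08 (adjusted p = 0.754). For Anxa2, 1437692_x_at differed by 0.12 (limma adjusted p = 0.922), with signals from 2.78 to 6.54, and 1437691_at lay at the floor on all 16 arrays. Averaged over its probe sets, Anxa2 differed by 0.17 and did not pass (limma adjusted p = 0.613). The suffix x marks probe sets with probes that match other sequences too. Over all genes, 15 probe sets named 1 of the 10 genes alone. Of these, 13 were bright enough to test, 8 rose and none fell, beside 6.78% of all probe sets tested that were called higher.

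The Anxa2 promoter is shown because it holds a match to the AP-1 letters; S100a10 has no window in the RefSeq table used.
Anxa2, chr9:69453433-69453682, plus strand: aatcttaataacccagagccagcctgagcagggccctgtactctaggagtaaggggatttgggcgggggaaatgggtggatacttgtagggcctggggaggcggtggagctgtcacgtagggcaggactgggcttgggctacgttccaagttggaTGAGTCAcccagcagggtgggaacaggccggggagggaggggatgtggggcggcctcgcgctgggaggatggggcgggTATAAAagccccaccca
TGAGTCA begins 95 bases before the Anxa2 start and TATAAA 17 bases before it. Of all windows, 6.75% hold the AP-1 letters.

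Anxa1 encodes annexin A1, a mediator that limits leukocyte entry through formyl peptide receptors and is abundant in myeloid and epithelial cells. It (1448213_at) ran from 9.34 through 9.52 to 9.99 in wild type and from 10.07 through 10.14 to 10.46 in knockout. The groups did not overlap, and wild-type array 2-1, at 9.99, came nearest to the knockout arrays. The log2 difference was 0.59 ± 0.084 (SE), with a limma adjusted p = 3.74e-05. It was 0.44 among brighter (limma adjusted p = 0.0235) and 0.77 among dimmer arrays (adjusted p = 0.000407), and 0.69 without wild-type arrays 2-1 and 2-2. The second Anxa1 probe set, 1444016_at, lay at the floor on 15 arrays.
Anxa1, chr19:20390672-20390921, minus strand: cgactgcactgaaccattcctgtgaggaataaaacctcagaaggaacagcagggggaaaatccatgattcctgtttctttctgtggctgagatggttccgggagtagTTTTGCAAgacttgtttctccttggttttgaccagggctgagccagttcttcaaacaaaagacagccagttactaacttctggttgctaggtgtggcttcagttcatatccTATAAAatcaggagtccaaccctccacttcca
This Anxa1 window is shown beside that of S100a9, since both hold the C/EBP letters: TTTTGCAA matches on the minus strand 143 bases before the start, and TATAAA lies 32 bases before it.

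S100a11 encodes the S100 protein that binds the tail of annexin A1, and no probe set named it alone. Probe set 1460351_at names S100a11 together with S100a11-ps and Gm12854, so its signal cannot be given to 1 of them, and it is left out of the counts above. It ran from 11.68 through 11.84 to 11.94 in wild type and from 12.05 through 12.17 to 12.30 in knockout. The groups did not overlap. The log2 difference was 0.34 ± 0.047 (SE), or 1.27-fold (limma adjusted p = 3.58e-05 over 23794 probe sets that name any gene, of which 6.84% were called higher). The relation of this probe set to Anxa1 passed in neither genotype. In knockout r was 0.170 (exact permutation p = 0.648, adjusted 0.648; rho = 0.267, exact permutation p = 0.4933, adjusted 0.4933), and 0.245 without arrays 2-3 and 3-2. In wild type r was -0.24 (exact permutation p = 0.602, adjusted 0.648; rho = -0.5, exact permutation p = 0.267, adjusted 0.32), and 0.00378 without arrays 1-1 and 4-2.
S100a11, chr3:93520246-93520495, plus strand: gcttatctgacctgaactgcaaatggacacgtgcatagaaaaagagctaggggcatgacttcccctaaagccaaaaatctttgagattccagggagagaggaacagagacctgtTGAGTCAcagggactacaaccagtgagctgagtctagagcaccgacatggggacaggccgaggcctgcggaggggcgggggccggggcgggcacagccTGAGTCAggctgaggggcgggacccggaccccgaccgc
The window before S100a11 is shown because TGAGTCA occurs in it at both 136 and 38 bases before the start. Among the 9 genes with a window, 2 hold the AP-1 letters (S100a11 and Anxa2), 2 the C/EBP letters, 4 TATAAA (S100a4, S100a8, Anxa1 and Anxa2) and none the STAT letters, which 7.02% of all windows hold.

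Anxa5 encodes annexin A5, which binds phosphatidylserine on the surface of dying cells. It (1425567_a_at) ran from 10.99 through 11.05 to 11.29 in wild type and from 11.28 through 11.39 to 11.64 in knockout. Only wild-type array 5-1, at 11.29, lay inside the knockout range, and 8 of 9 knockout arrays lay above it. The log2 difference was 0.33 ± 0.055 (SE) or 1.25-fold (limma adjusted p = 0.000235). It was 0.32 in both brightness groups (limma adjusted p = 0.014 and 0.0351). Females alone differed by 0.22 (limma adjusted p = 0.143) and males by 0.44 (adjusted p = 0.00153), with an interaction of 0.22 (adjusted p = 0.455). The residual SD of Anxa5 exceeded that of 8.18% of genes tested.

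S100a1 encodes a calcium sensor of muscle that is also found in kidney tubules. It (1419814_s_at) ran from 10.27 through 10.50 to 10.71 in wild type and from 10.27 through 10.40 to 10.58 in knockout. All 7 wild-type arrays lay above the lowest knockout array, and 3 of 9 knockout arrays were higher than the mean of wild type. The log2 difference was -0.07 ± 0.065 (SE), with a 95% interval from -0.20 to 0.07 (limma adjusted p = 0.556). Its other probe set, 1417421_at, differed by -0.15 (limma adjusted p = 0.31 over all probe sets). S100a1 and S100a4 were the tested genes of the 9 that did not pass.

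**Figure D4:**
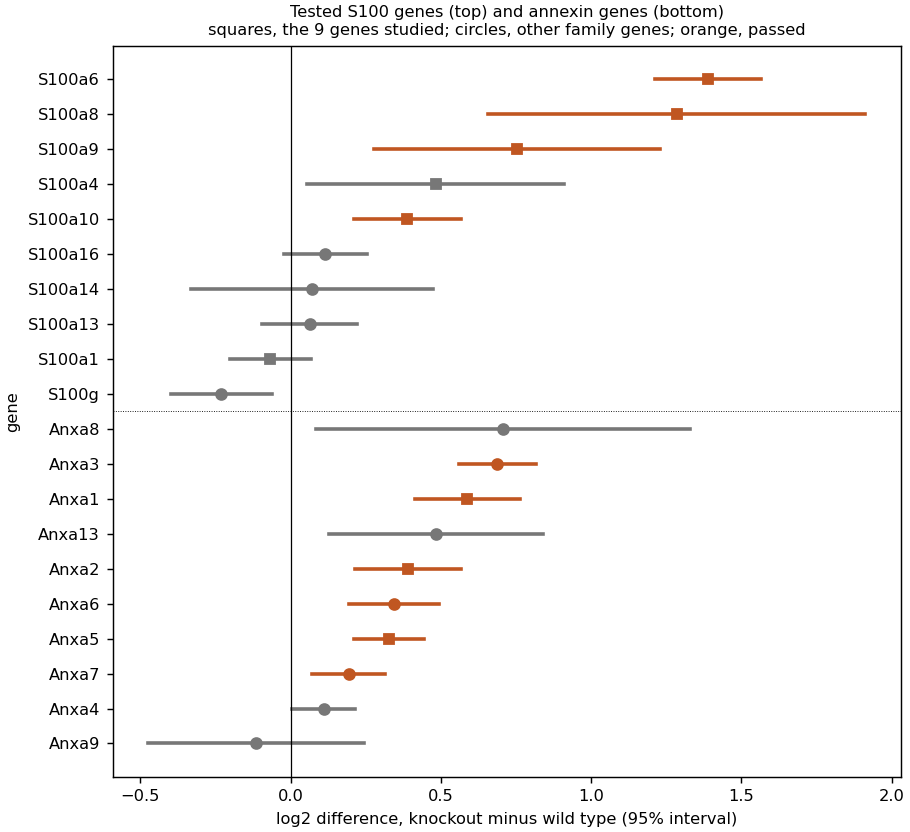
Log2 difference, knockout minus wild type, with its 95% interval for each tested S100 gene (top) and annexin gene (bottom); squares are the 9 genes described, circles other genes of the families, and orange marks those that passed. Annexin differences run from -0.11 for Anxa9 to 0.71 for Anxa8, and S100a6 and S100a8 have the largest S100 differences.

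The rest of both families was read from the same fit. Of 10 other S100 genes, 4 were tested and none passed: S100g at -0.23 (limma adjusted p = 0.0552), S100a16 at 0.12 (adjusted p = 0.269), S100a13 at 0.06 and S100a14 at 0.07. S100g encodes calbindin-D9k, which carries calcium through distal tubule cells. It ran from 12.22 through 12.39 to 12.66 in wild type and from 11.75 through 12.23 to 12.43 in knockout. The knockout median lay just inside the wild-type range. Its 95% interval, -0.40 to -0.06, leaves out 0, whereas those of the other tested genes of this list include it.

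Of 9 other annexin genes, 7 were tested and 3 rose, beside 9.37% of all genes called higher: Anxa3, Anxa6 and Anxa7. Anxa3 ran from 9.48 through 9.65 to 9.72 in wild type and from 10.12 through 10.29 to 10.51 in knockout, with no overlap. Its log2 difference of 0.69 ± 0.061 (SE), or 1.61-fold, had the smallest adjusted p of all annexin genes (limma adjusted p = 8.46e-08). Anxa6, which binds endosomal and plasma membranes, rose by 0.34 (limma adjusted p = 0.00163) and Anxa7 by 0.19 (adjusted p = 0.0257). Among those that did not pass were Anxa13 at 0.48 (limma adjusted p = 0.0563), Anxa8 at 0.71 (adjusted p = 0.115) and Anxa4 at 0.11 (adjusted p = 0.151).

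Of 24 partners and receptors of the S100 proteins and annexins, 21 were tested, and Plaur, Vim and Ahnak rose. That is 3 of 21, beside the 9.37% of all genes called higher, and the list's median log2 difference was 0.15. None fell. Plaur encodes the urokinase receptor and rose most of these 3. It ran from 5.60 through 6.38 to 6.71 in wild type and from 7.08 through 7.37 to 7.85 in knockout. Those groups did not overlap, and the log2 difference was 1.12 ± 0.16 (SE), or 2.18-fold (limma adjusted p = 2.56e-05). Vim, an intermediate filament of mesenchymal and injured epithelial cells, rose by 0.36 (limma adjusted p = 5.63e-05). Ahnak, a scaffold bound by the S100A10 and annexin A2 complex, rose by 0.15 (limma adjusted p = 0.0314). Myh9 (0.14, limma adjusted p = 0.0824), Sugt1 (0.14, adjusted p = 0.0908) and Cav1 (0.19, adjusted p = 0.132) were nearest to the threshold among those that did not pass.

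Most of these S100 genes lie in 1 stretch of chromosome 3, which also holds genes of the cornified envelope. From S100a1 to S100a10 the RefSeq table lists 70 genes, of which 48 were on the array and 15 were tested. Of these 15, 6 rose and none fell: S100a6, S100a8, S100a9, S100a10, Sprr2f and Sprr1a. Over all genes tested, 9.37% were called higher, and the S100 genes in this count are those already described. Sprr2f and Sprr1a encode small proline-rich proteins of stratified and injured epithelium, and their log2 differences, 3.18 ± 0.27 and 2.58 ± 0.17 (SE), were the largest in the stretch. Change was not even along it. The first 4 genes, S100a1, S100a13, S100a14 and S100a16, had differences from -0.07 to 0.12 and none passed, whereas S100a8 and S100a9, which neighbour each other, both rose. S100a10 stands at the far end next to S100a11. Anxa5 lies elsewhere on chromosome 3, Anxa2 on chromosome 9 and Anxa1 on chromosome 19.

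**Figure D5:**
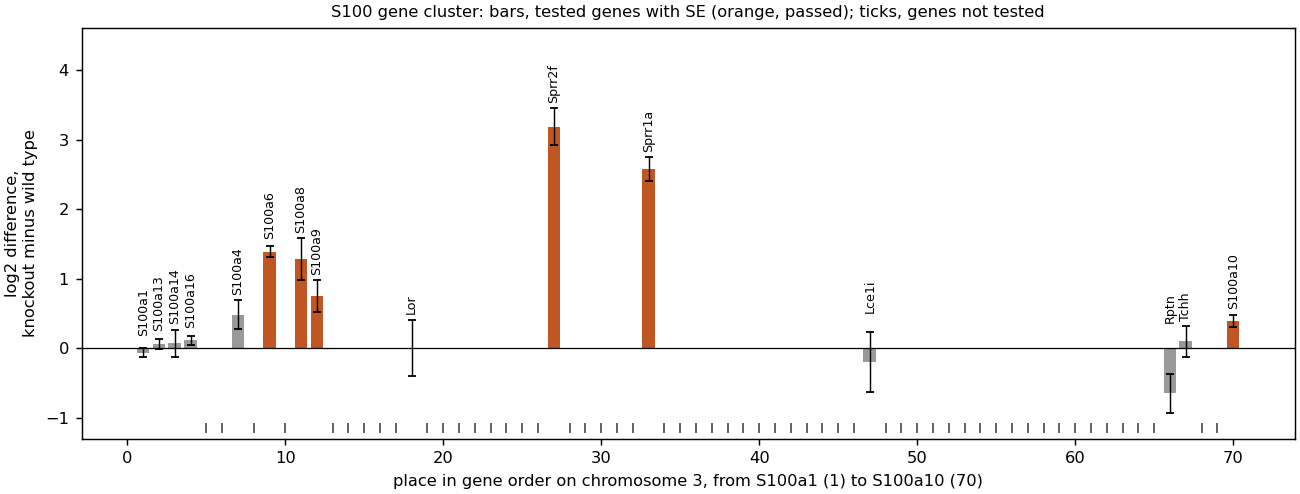
Log2 difference, knockout minus wild type, of the 15 tested genes by their place in the gene order from S100a1 (1) to S100a10 (70) on chromosome 3, with SE bars, orange for genes that passed and grey for those that did not; ticks at the foot mark genes not tested. Sprr2f and Sprr1a stand highest, and the first 4 genes lie close to 0.

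The 9 genes fell apart in how they varied between animals of the same genotype. Deviations from the genotype means were compared over the 16 arrays, as a description. S100a10 went with Anxa2 (Pearson r = 0.81) and with Anxa5 (r = 0.77), whereas S100a4 went with S100a8 (r = 0.63) and against Anxa5 (r = -0.41). S100a8 and S100a9 stood at r = 0.81 over both genotypes. Over all 12500 genes, those most like S100a8 were Fermt3 (r = 0.85), Plek (r = 0.84) and Lcp1 (r = 0.83), which are known from blood and immune cells and which all rose. Here and below, the genes most like another were picked as the highest r over all 12500. Such an r is high by selection, and it was not tested. S100a9 was most like Herpud1 (r = 0.91), a gene induced by endoplasmic reticulum stress that rose by 0.74 (limma adjusted p = 0.00012), and then like Esyt2 and Tbl3, which did not pass. S100a6 was most like Gda (r = 0.86), Cdk9 and Socs2. Of those, Gda rose by 1.09 (limma adjusted p = 0.00391) and Socs2 by 0.77 (adjusted p = 1.21e-06).

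S100a10 was most like Coro1b (r = 0.97), Zbtb7c and Ppdpf, none of which passed. Anxa2 was most like Pfn1 (r = 0.94), which encodes the actin-binding profilin and rose by 0.33 (limma adjusted p = 0.0155), then Ssna1 and Alyref. Anxa1 was most like Mtg1 (r = 0.84), Lgals3 (r = 0.83) and Tradd, and of these Lgals3, the gene of galectin-3, rose by 1.25 (limma adjusted p = 8.86e-09). S100a4 was followed after Cd14 by Sema3e and Ptprj, Anxa5 by Pafah1b2, Nsdhl and Ints3, and S100a1 by Ghitm, Fars2 and Tmem106a. Of the last 8 genes, none passed. These arrays also share their brightness, which parted the knockout values of S100a10; its part in these likenesses was not tested.

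Markers of injured epithelium stood beside the whole set. Of 13 tested, 11 rose, with a median log2 difference of 0.92, and the list means of 7.12 to 7.68 (wild type) and 8.78 to 9.10 (knockout) did not overlap. Proximal tubule markers fell in 11 of 12, with a median of -0.68. Distal and collecting duct markers were split, with 1 of 10 higher and 3 lower, and the endothelial (4 of 8) and podocyte (2 of 5) markers that passed were all lower. Over all genes tested, 9.37% were called higher and 8.35% lower. The part of any of these cell types in the S100 and annexin values was not tested.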

How the data were processed

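Kidney RNA of 16 pups was hybridised to 1 Affymetrix mouse array each, and the deposited unit is linear signal intensity. The authors used GCOS 1.3, per the submitters' processing notes. Scaling between arrays is not given in sources used here. After quantile normalization, a floor at the 20th percentile (6.89) was set and log2 was taken, which understates changes of dim genes. Of 45101 probe sets, the platform annotation lists 35890, of which 34958 name 1 gene and 932 several; 9211 are unnamed here. The brightest probe set naming 1 gene stood for it, and was tested where it exceeded the 40th percentile of the array on 7 or more arrays.

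Genotypes were compared with limma 3.58.1 in R 4.3.3 (lmFit, eBayes with a variance trend, genotype only; Benjamini-Hochberg at 0.05). Relations between genes used two-sided exact permutation of the pairings. The members and gene lists were chosen with earlier results of these data known. Named genes are the members with all their probe sets, up to 8 of each family or partner list that passed and 3 that did not, and the 3 genes most like each member. Promoters came from RefSeq, GRCm38.p6, which had 9 of the 10 genes. The number of animals limits the precision.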

Additional observations from a re-analysis of the deposited data

Results flagged for a closer look

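Among 18 groups checked (9 genes in both genotypes), 1 held an array set apart from the others of its group, and chance alone gives about 1 in 20. Anxa5 in knockout array 3-4 had a log2 signal of 11.64 against 11.45 on the next array, a gap of 0.527 of the group's whole range. That array was among the 5 dimmer knockout arrays.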

How the results depend on the processing

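S100a6 passed in all 35 alternatives, with log2 differences from 1.33 to 1.46. No alternative called any of the 9 genes lower. The genes that passed as higher numbered 6 to 7 when each array was left out in turn (1858 to 2209 over all genes), against 7 and 2215. With the deposited scaling 2 passed (438 over all genes, and 1 probe set against 8), in females alone 2 (681), in males alone 7 (1417), among brighter arrays 4 (1333) and among dimmer arrays 7 (1183). Leaving out the arrays farthest from the median lowered r from 0.975 to 0.938 for wild-type S100a8 with S100a9, where too few arrays were left to pass. For knockout S100a10 with Anxa2 it lowered r from 0.877 to 0.740, which did not pass. For wild-type S100a10 with Anxa2 r became -0.207 (exact permutation, adjusted p = 0.92). For the wild-type probe set shared by S100a11 with Anxa1 it became 0.00378, close to no relation. Both signs changed, but few arrays were left and neither r passed before or after. The cause was not tested. Without the filter on dim genes S100a9 did not pass (adjusted p = 0.0663 by limma). Leaving out wild-type arrays 2-1 and 2-2, leaving out knockout arrays 1-2 and 2-3 for the ratio of S100a8 to S100a9, and the fit over all probe sets naming any gene were chosen after seeing the data. With the first sample number as a replicate block, 8 of the 9 passed (2655 over all genes), S100a4 being added at 0.58 (limma adjusted p = 0.00986). With that block the SE of S100a8 was 0.20, against 0.30 without it. Arrays that share a number deviated together with r from -0.01 to 0.32 over 5 numbers, not all above 0.1. The numbers were therefore not taken to pair the animals in the main fit. They may mark the breeding pair, and these r do not settle it. Signals near the floor limit what can be said of the dim probe sets.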
